A study of Homo sapiens with 12 samples.

Results

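The SR splicing factors examined here are 10 genes, SRSF1, SRSF2, SRSF3, SRSF5, SRSF6, SRSF7, SRSF8, SRSF9, SRSF10 and SRSF11, taken by gene name from the 60106 genes of the count tables. All 10 are annotated as protein-coding, and all 10 had enough counts to be tested. Coordinates are those of the tables, on GRCh37. The libraries came from 2 established human prostate cancer lines, PC3, derived from a bone metastasis, and VCaP, derived from a vertebral metastasis and carrying an ERG rearrangement. Each line was transfected with non-targeting siRNA (NSI) or with siRNA against the forkhead transcription factor FOXA1 (siFOXA1) and lysed 72 hours later, with 3 replicates in each of the 4 groups. PC3 received 20 nM siRNA in RPMI-1640 medium and was sequenced with the TruSeq stranded mRNA kit, from polyadenylated RNA. VCaP received 40 nM siRNA in DMEM and was sequenced with the TruSeq total RNA kit. Cell line, dose, medium and kit therefore cannot be told apart in any comparison of the lines. The labels do not say whether the replicates were separate cultures, so p-values measure the spread between these libraries, which may be technical.

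SR proteins carry RNA recognition motifs and a tail rich in arginine and serine. They bind short enhancer sequences in exons, where they recruit the U1 snRNP and U2AF to splice sites, and several of them also escort mRNA out of the nucleus. The proteins are phosphorylated by SRPK kinases in the cytoplasm and CLK kinases in the nucleus, and SR genes limit their own expression through poison exons that send transcripts to nonsense-mediated decay. The question of the series was how FOXA1 bears on splicing factors, and the gene counts speak to the summed transcripts of each gene and not to its isoforms.

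FOXA1 itself fell to 62.3% of its NSI level in PC3 (mean ± SD over 3 libraries from 271 ± 30.03 to 169 ± 11.4 CPM, adjusted p 0.00220) and to 16.5% in VCaP (from 489.7 ± 47.0 to 80.6 ± 6.19 CPM, adjusted p 1.84e-07), by edgeR's quasi-likelihood test with Benjamini-Hochberg adjustment over all genes. Library totals spanned 123140099 to 188226483 counts (PC3) and 48187047 to 59839211 counts (VCaP), and each SR gene had at least 1826 counts in every library. Among the markers read for the lines, ERG stood at 0.0297 CPM in PC3 NSI and at 238 CPM in VCaP NSI, and VIM at 748 and 0.263 CPM. HOXB13, read as a VCaP marker, went the other way, with 360 CPM in PC3 NSI and 253 CPM in VCaP NSI. The other listed markers of a line were higher in that line, though ANXA1, read for PC3, still stood at 37.4 CPM in VCaP NSI. Summed levels of 5 fibroblast, 5 leukocyte and 3 endothelial genes reached at most 50.1 CPM in any library, and the defining leukocyte genes PTPRC and CD3E stayed at or below 0.113 CPM as group means. These sums moved with the groups. The leukocyte genes went from between 26.7 and 29.9 CPM in NSI to between 44.7 and 50.1 CPM in siFOXA1 of PC3, mostly through CD68 (28.3 against 46.1 CPM as group means), and the fibroblast genes from between 23.96 and 28.1 to between 40.5 and 45.1 CPM. In VCaP the fibroblast genes went from between 10.9 and 19.5 to between 1.33 and 5.49 CPM, and the endothelial genes from between 4.03 and 4.70 to between 1.77 and 2.12 CPM, while the leukocyte genes stayed at or below 0.751 CPM in sum. The part of these genes in the results was not tested.

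In the control libraries the SR genes spanned a wide range of levels per length, given here as CPM per kilobase of exon. CPM is a gene's count relative to the size of its library, after TMM scaling of the libraries. In PC3 NSI the highest were SRSF9, a close relative of SRSF1 with a short arginine-serine tail, at 84.8 ± 9.34, SRSF1, the founding member of the family, at 79.9 ± 5.45, SRSF6 at 71.5 ± 2.03 and SRSF5 at 68.8 ± 2.87 CPM per kilobase (SD, n = 3). SRSF7, SRSF2 and SRSF3 followed between 43.1 and 45.5, then SRSF11 at 34.4 ± 2.90, SRSF8 at 12.99 ± 0.397 and SRSF10 at 10.5 ± 0.391. The libraries of neighbours in this order overlapped for SRSF9 and SRSF1, for SRSF6 and SRSF5, and through the run of SRSF7, SRSF2 and SRSF3, so these orders do not exceed the spread between replicates. In VCaP NSI the order was SRSF1 (69.3 ± 1.76), SRSF6 (63.6 ± 1.62), SRSF3 (54.4 ± 1.58), SRSF2 (50.8 ± 1.31), SRSF9 (50.7 ± 0.312), SRSF7 (44.7 ± 1.45), SRSF11 (21.8 ± 1.66), SRSF5 (19.4 ± 1.34), SRSF8 (18.7 ± 0.447) and SRSF10 (11.9 ± 0.770). Overlap there was limited to SRSF2 with SRSF9, SRSF11 with SRSF5, and SRSF5 with SRSF8. SRSF5 ranked 4 of 10 in PC3 NSI and 8 of 10 in VCaP NSI. Levels of the lines come from different kits and strand settings, so no test was made of a level between them.

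After FOXA1 siRNA, SRSF1, SRSF3, SRSF7 and SRSF8 passed the test as lower in both lines, and SRSF5 passed as higher in VCaP. In PC3, 7 of the 10 passed the test as lower and none as higher, and for 7 genes the 3 siFOXA1 libraries were all below the lowest NSI library, while for SRSF5 they were all above the highest. Over all 26478 genes tested in PC3, 13.9% were called lower and 13.9% higher (27.7% in either direction), and 22.7% lay wholly below and 22.4% wholly above the NSI libraries. In VCaP, 5 passed as lower and SRSF5 as higher, with 6 genes wholly below and 1 wholly above. Over all 22939 genes tested in VCaP, 23.3% were called lower and 22.5% higher (45.8% in either direction), 28% lay wholly below and 27.9% wholly above. Abundant genes were called lower more often than that: of the genes averaging 30 CPM or more, as every SR gene did in both lines, 23.3% were called lower and 9.42% higher in PC3, and 38.5% lower and 22.6% higher in VCaP. That level was set after the calls had been seen, and no test compares the SR genes with those genes. The 5 of 10 called lower in VCaP are not far from this share. The median log2 fold change of the 10 genes was −0.32 in PC3 and −0.18 in VCaP, against −0.01 and 0.02 over all genes tested and −0.14 and −0.08 over those of at least 30 CPM.

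The PC3 count is the less settled of the pair. Estimated counts midway between whole numbers were rounded up. With such ties rounded to even, 5 SR genes passed as lower and 1 as higher in PC3, since SRSF6 (adjusted p 0.0724) and SRSF10 (adjusted p 0.0521) were lost and SRSF5 (adjusted p 0.0437) was gained. Rounding up was settled on after both outcomes had been seen. The count of 7 also rested on single libraries: 4 SR genes passed as lower without NSI replicate 1 or without NSI replicate 3, and 3 without siFOXA1 replicate 1 or without siFOXA1 replicate 3. Scaling by library size alone turned the equal split of all PC3 calls into 2562 lower and 4607 higher, and left 4 SR genes lower and 1 higher. SRSF3, SRSF7 and SRSF8 passed as lower in PC3 in every one of the 15 alternatives, and in VCaP 5 lower and 1 higher held in 14 of 15.

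**Figure D1:**
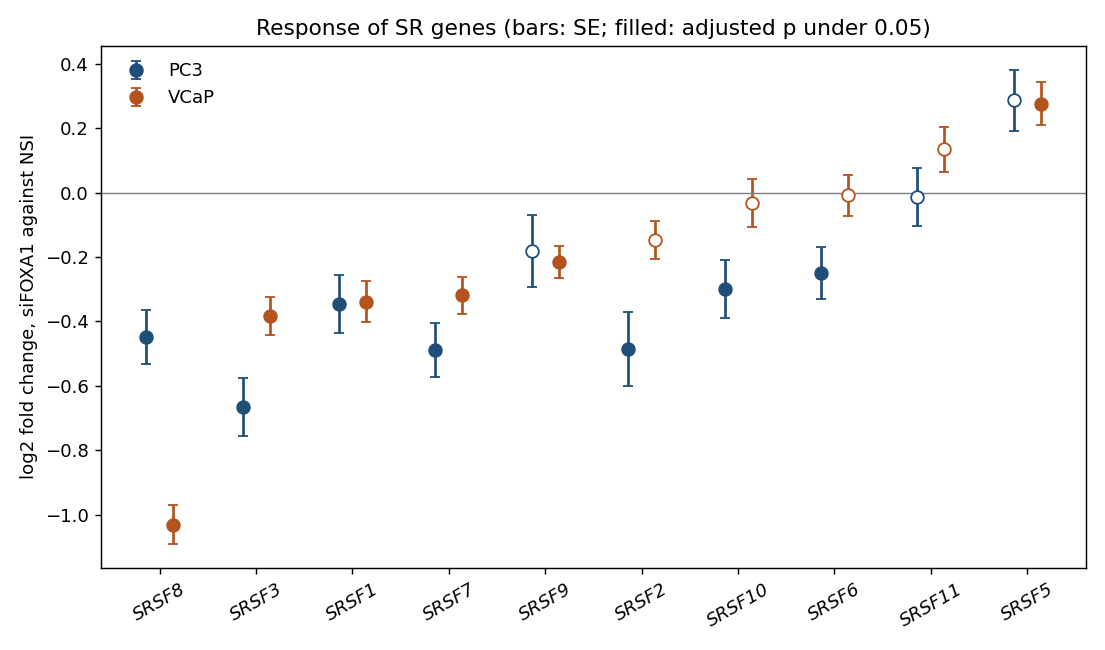
Log2 fold change of each SR gene, siFOXA1 against NSI, in PC3 (blue) and VCaP (orange). Bars are the standard error of the fit, and filled points passed an adjusted p of 0.05. SRSF8 in VCaP stands lowest at −1.03, and SRSF5 lies above 0 in both lines, at 0.29 and 0.28.

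The pair of export adaptors, SRSF3 and SRSF7, fell in both lines. SRSF3 (ENSG00000112081.16_2, chr6:36562145-36573377, plus strand) encodes the smallest SR protein, which links splicing to NXF1-dependent mRNA export. In PC3 its level was 174, 196 and 197 CPM under NSI and 118, 127 and 114 CPM under siFOXA1. Mean levels went from 189 ± 12.7 to 119 ± 6.72 CPM (SD, n = 3 each), and the log2 fold change was −0.66 (adjusted p 0.00119, SE 0.09). In VCaP it was 238, 232 and 246 CPM under NSI and 184, 183 and 182 CPM under siFOXA1. The siFOXA1 libraries of VCaP lay close together (SD 0.707) and below every NSI library, and the log2 fold change was −0.38 (adjusted p 0.000632, SE 0.06). SRSF7 (ENSG00000115875.18_3, chr2:38970741-38978636, minus strand), a relative of SRSF3 with an added zinc knuckle, stood in PC3 at 110.0, 114 and 115 CPM under NSI and 77.4, 86.6 and 77.9 CPM under siFOXA1. All siFOXA1 libraries were again the lower ones, with a log2 fold change of −0.49 (adjusted p 0.00365, SE 0.08). In VCaP SRSF7 stood at 108, 111 and 115 CPM under NSI and 87.3, 91.0 and 88.9 CPM under siFOXA1, without overlap, and fell by 0.32 on the log2 scale (SE 0.06, adjusted p 0.00149). Each of these 4 calls held in all 15 alternative settings.

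SRSF1 (ENSG00000136450.12_3, chr17:56080721-56084707, minus strand) binds purine-rich exonic enhancers and is a known proto-oncogene. Its level in PC3 was 253, 239.7 and 274 CPM under NSI and 205, 209.7 and 188 CPM under siFOXA1, and in VCaP 216, 222 and 228 CPM under NSI and 184, 172 and 169.8 CPM under siFOXA1. The groups did not overlap in either line. It fell to 78.6% of the NSI mean in PC3, a log2 fold change of −0.35 (adjusted p 0.0214, SE 0.09), and to 79.1% in VCaP, a log2 fold change of −0.34 (adjusted p 0.00193, SE 0.06). The PC3 call depended on single libraries: the adjusted p was 0.0561 without NSI replicate 1, 0.0922 without NSI replicate 3, 0.093 without siFOXA1 replicate 1 and 0.0889 without siFOXA1 replicate 3, with log2 fold changes between −0.34 and −0.30. SRSF9 (ENSG00000111786.8_2, chr12:120899471-120907596, minus strand) is the close relative of SRSF1. In VCaP it was 61.0, 61.2 and 60.4 CPM under NSI and 52.0, 52.8 and 52.5 CPM under siFOXA1, with narrow, separate groups and a log2 fold change of −0.21 (adjusted p 0.00612, SE 0.05). In PC3 SRSF9 was 91.5, 114 and 100.3 CPM under NSI and 88.6, 99.1 and 81.7 CPM under siFOXA1. These groups overlapped, and its log2 fold change of −0.18 (95% interval −0.44 to 0.07) did not pass (adjusted p 0.254).

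**Figure D2:**
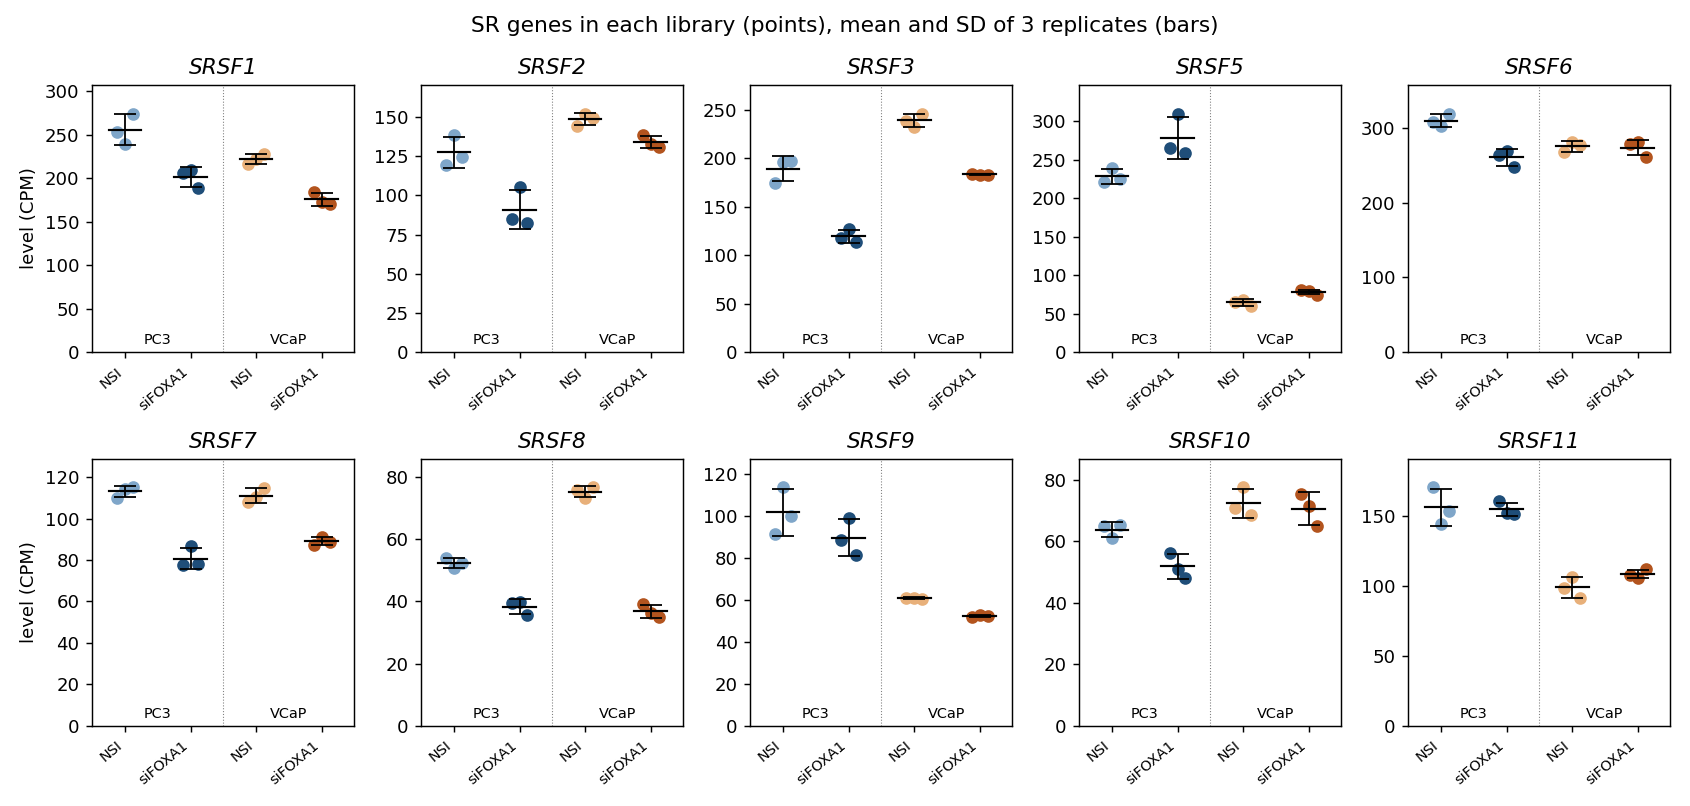
Level in CPM of each SR gene in the 12 libraries, from 0, with the mean and SD of the 3 replicates per group. The siFOXA1 points of SRSF3, SRSF7, SRSF1 and SRSF8 lie below the NSI points in both lines, and those of SRSF5 lie above, with a level in PC3 of 228 CPM and in VCaP of 64.3 CPM in NSI.

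SRSF8 gave the largest fall of the 10 genes, in VCaP. It is a gene without introns that arose from an SRSF2 transcript, and the tables give it 1 exon (ENSG00000263465.4_2, chr11:94800361-94804387, plus strand). In VCaP SRSF8 was 75.9, 73.3 and 76.7 CPM under NSI and 39.1, 36.3 and 35.1 CPM under siFOXA1. The siFOXA1 libraries held 48.9% of the NSI mean, with no overlap, and the log2 fold change was −1.03 (adjusted p 1.63e-06, SE 0.06). In PC3 it was 53.9, 50.7 and 52.3 CPM under NSI and 39.6, 39.9 and 35.5 CPM under siFOXA1. Here too the groups were separate, with 73.2% of the NSI mean and a log2 fold change of −0.45 (adjusted p 0.00549, SE 0.08). The difference between the lines, VCaP minus PC3, was −0.60 (adjusted p 0.000845, SE 0.11), with a 95% interval of −0.83 to −0.37. SRSF8 was the only one of the 10 whose response differed between the lines by this test, to which a replicate block added SRSF2 and SRSF3, and 22.1% of 30450 genes did so (11.1% in each direction), and the calls of SRSF8 in both lines and in the difference held in every alternative run. FOXA1 was lowered further in VCaP than in PC3, and the part of that difference in the response of SRSF8 was not tested.

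SRSF2 (ENSG00000161547.16_3, chr17:74730197-74733456, minus strand), the gene from which SRSF8 derives, encodes a protein that marks nuclear speckles. Its level in PC3 was 119, 138 and 125 CPM under NSI and 84.8, 105 and 82.5 CPM under siFOXA1, with replicate 2 the highest library of each group. The siFOXA1 libraries all lay lower, and the log2 fold change was −0.49 (adjusted p 0.0151, SE 0.12). That call was lost without siFOXA1 replicate 1 (−0.41, adjusted p 0.101) and without siFOXA1 replicate 3 (−0.42, adjusted p 0.0611). In VCaP SRSF2 was 145, 152 and 149 CPM under NSI and 139, 133 and 131 CPM under siFOXA1. The groups did not overlap there either, but the log2 fold change of −0.15 (SE 0.06) missed the threshold with an adjusted p of 0.0685. The difference of the responses, 0.33 (95% interval 0.05 to 0.61, unadjusted), did not pass after adjustment (adjusted p 0.0938). Without PC3 siFOXA1 replicate 2 that difference was 0.36 and passed with an adjusted p of 0.0359. Annotated exons of SRSF2 and SRSF8 align at 81.6% identity over 1062 bases, the longest of 4 alignments between them, and the search for copies found none of at least 100 bases at 95% identity or more between them.

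SRSF5 (ENSG00000100650.15_3, chr14:70193617-70238721, plus strand), known from liver as an insulin-induced gene, was the exception in direction. In VCaP it was 65.6, 68.0 and 59.4 CPM under NSI and 80.1, 78.9 and 74.5 CPM under siFOXA1. Every siFOXA1 library exceeded every NSI library, and the log2 fold change was 0.28 (adjusted p 0.00819, SE 0.07), which held in all 15 alternatives. In PC3 SRSF5 was 221, 239 and 224 CPM under NSI and 265, 309.7 and 259 CPM under siFOXA1. The order of the groups was the same and the log2 fold change of 0.29 (SE 0.10) as large, but the adjusted p was 0.0553. This result sat at the threshold: it passed in 9 of 15 alternatives, among them DESeq2 (adjusted p 0.0382) and the fit without NSI replicate 2 (adjusted p 0.0265). The difference between the lines was −0.02 (95% interval −0.28 to 0.23).

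SRSF6 and SRSF10 passed as lower in PC3 only by a narrow margin. SRSF6 (ENSG00000124193.14_2, chr20:42086568-42092887, plus strand), which encodes an SR protein with a pair of RNA recognition motifs, stood in PC3 at 308, 302 and 319 CPM under NSI and 264, 269 and 248 CPM under siFOXA1. Its siFOXA1 libraries were the lower ones without overlap. Its log2 fold change was −0.25 (adjusted p 0.0473, SE 0.08), and the call was lost in 12 of 15 alternatives, including each of the 6 fits that left out a library (adjusted p 0.0667 to 0.187). SRSF10 (ENSG00000188529.14_3, chr1:24291294-24306846, minus strand) encodes a protein that turns into a repressor of splicing when it loses its phosphates in mitosis or after heat shock. In PC3 SRSF10 was 65.2, 61.1 and 65.3 CPM under NSI and 56.3, 51.1 and 48.2 CPM under siFOXA1. The groups were separate, with a log2 fold change of −0.30 (adjusted p 0.0365, SE 0.09), and the call was lost in 10 of 15 alternatives, including every fit that left out a library other than NSI replicate 2 (adjusted p 0.0688 to 0.139).

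In VCaP neither SRSF6 nor SRSF10 passed the test. SRSF6 was 267, 281 and 277 CPM under NSI and 278, 281 and 261 CPM under siFOXA1, and SRSF10 was 71.0, 77.6 and 68.5 CPM under NSI and 75.5, 71.5 and 65.0 CPM under siFOXA1. Both pairs of groups overlapped. The log2 fold changes were −0.01 (95% interval −0.15 to 0.14, adjusted p 0.927) for SRSF6 and −0.03 (95% interval −0.20 to 0.13, adjusted p 0.741) for SRSF10, and both signs flipped with upper-quartile scaling (0.04 and 0.01). Though they passed in PC3 and not in VCaP, neither gene passed the test of the difference between the lines. The difference was 0.23 (95% interval −0.002 to 0.46, adjusted p 0.156) for SRSF6 and 0.25 (95% interval −0.01 to 0.51, adjusted p 0.171) for SRSF10. A difference was thus neither called nor excluded. For SRSF3, with a larger fall in PC3, the difference was 0.27 (95% interval 0.03 to 0.50, unadjusted) and did not pass after adjustment (adjusted p 0.105). SRSF11 (ENSG00000116754.13_2, chr1:70671365-70718735, plus strand) encodes an SR-related protein that contacts U2AF. In PC3 it was 171, 145 and 154 CPM under NSI and 161, 153 and 152 CPM under siFOXA1, and in VCaP 98.8, 107 and 91.8 CPM under NSI and 108, 106 and 112 CPM under siFOXA1. SRSF11 overlapped between the groups in both lines and passed in neither, with a log2 fold change of −0.01 in PC3 (95% interval −0.22 to 0.19, positive under upper-quartile scaling and under library size alone) and 0.13 in VCaP (95% interval −0.02 to 0.29).

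The summed level of the 10 genes was lower in the siFOXA1 libraries of both lines, and the shares of its members differed between the groups. Their CPM summed to between 1567 and 1626 in the NSI libraries of PC3 and between 1286 and 1450.0 in its siFOXA1 libraries. In VCaP the sum was between 1347 and 1385 in NSI and between 1173 and 1227 in siFOXA1. Neither line's groups overlapped in this sum. Mitochondrial genes took 3.02% to 3.29% of the counts in VCaP NSI and 4.04% to 4.69% in VCaP siFOXA1, also without overlap, and 13.1% to 15.7% over all PC3 libraries, where the groups overlapped. With mitochondrial genes left out, the SR calls in VCaP were again 5 lower and 1 higher, and those in PC3 were 5 lower and 1 higher. As a share of the summed level per length, SRSF5 went from 13.9% ± 0.413 to 19.7% ± 0.750 in PC3 (SD, n = 3 each) and from 4.79% ± 0.335 to 6.65% ± 0.129 in VCaP. With 83.9 CPM per kilobase SRSF5 then ranked first of the 10 in PC3, ahead of SRSF9 within overlapping libraries. In PC3 the share of SRSF3 went from 8.70% ± 0.358 to 6.41% ± 0.0851, and in VCaP from 13.4% ± 0.460 to 11.8% ± 0.190. For SRSF8 it went from 4.61% ± 0.151 to 2.59% ± 0.0990 in VCaP. SRSF6, whose level in VCaP did not pass as changed, had a share there of 15.7% ± 0.193 in NSI and 17.9% ± 0.423 in siFOXA1. A share depends on all 10 genes at once, so these are descriptions without a test. All these levels are relative to the size of the library. In bulk RNA, fewer cells with a transcript and less of that transcript per cell cannot be told apart.

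**Figure D3:**
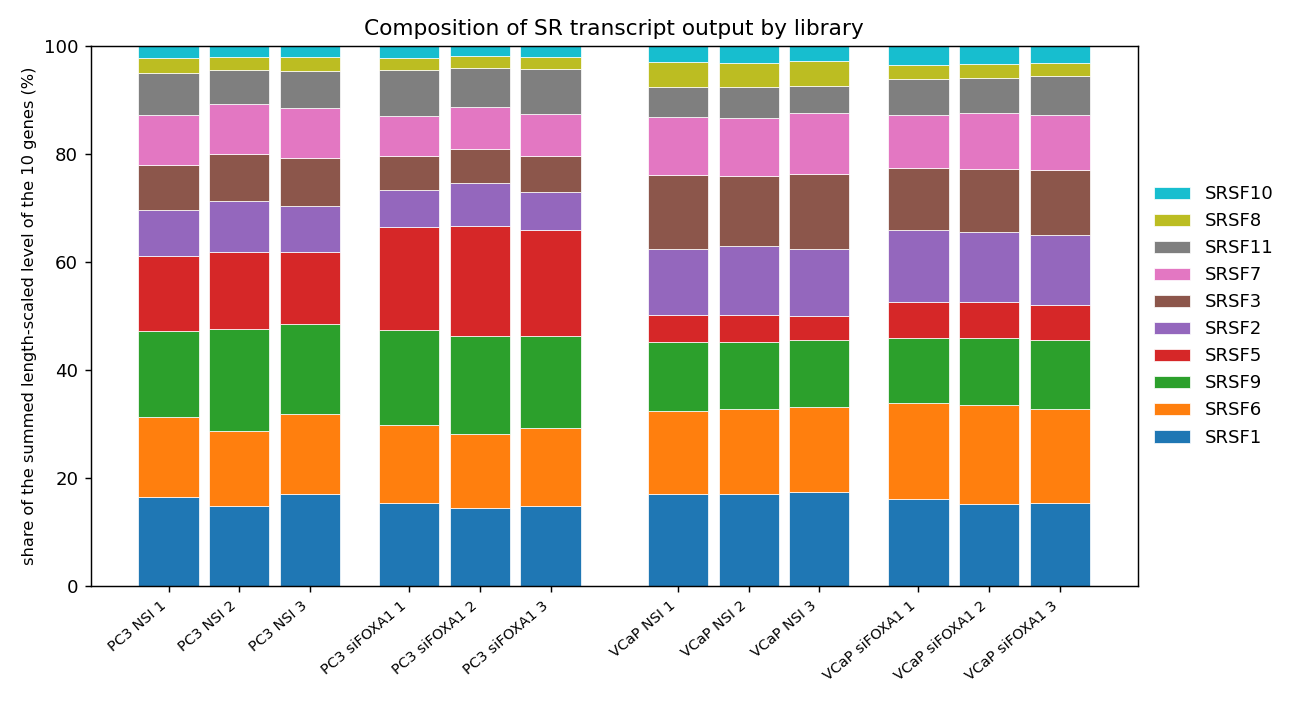
Share of each SR gene in the summed level per length of the 10 genes, in percent, for each of the 12 libraries. The SRSF5 segment (red) is wider in the siFOXA1 libraries of both lines, 19.7% against 13.9% on average in PC3, and the SRSF8 segment (olive) narrows in VCaP from 4.61% to 2.59%.

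Sequence upstream of the SR genes was read from RefSeq promoter windows, to set the responses of SRSF8, SRSF3 and SRSF6 beside their promoters. RefSeq held windows for 9 of the 10 genes, built on GRCh38.p14, and their 250 bases before each start were found on GRCh37 by exact match. The 3 windows printed here hold no annotated exon and belong to the gene with the largest fall (SRSF8), a gene that fell in both lines (SRSF3) and a gene that passed in PC3 alone (SRSF6). Capitals mark the words CCAAT and TATAAA and their reverse complements. The SRSF8 window lies at chr11:94799791-94800040 on the plus strand, upstream of a RefSeq start that precedes the exon of the tables, the SRSF3 window at chr6:36561889-36562138 on the plus strand, and the SRSF6 window at chr20:42086286-42086535 on the plus strand.
SRSF8: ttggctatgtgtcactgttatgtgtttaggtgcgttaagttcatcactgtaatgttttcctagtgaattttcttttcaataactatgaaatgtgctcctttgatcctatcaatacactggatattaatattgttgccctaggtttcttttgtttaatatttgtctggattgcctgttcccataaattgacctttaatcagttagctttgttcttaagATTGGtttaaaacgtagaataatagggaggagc
SRSF3: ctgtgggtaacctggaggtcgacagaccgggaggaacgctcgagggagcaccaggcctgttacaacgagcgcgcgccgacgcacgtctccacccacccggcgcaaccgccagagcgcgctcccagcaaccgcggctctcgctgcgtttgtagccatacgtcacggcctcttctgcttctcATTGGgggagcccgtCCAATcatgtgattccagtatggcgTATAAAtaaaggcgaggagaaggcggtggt
SRSF6: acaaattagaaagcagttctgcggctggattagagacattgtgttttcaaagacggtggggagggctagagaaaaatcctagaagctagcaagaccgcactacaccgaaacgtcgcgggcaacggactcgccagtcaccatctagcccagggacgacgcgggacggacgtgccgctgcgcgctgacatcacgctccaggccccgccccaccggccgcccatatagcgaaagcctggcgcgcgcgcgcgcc

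The SRSF8 window is poor in G and C, with 33.6% against a median of 58% over 35116 RefSeq promoter windows, whereas SRSF3 has 62.4% and SRSF6 61.6%. SRSF3 carries a pair of CCAAT words on opposite strands, starting 70 and 55 bases before the RefSeq start, and a TATAAA word starting 30 bases before it. SRSF8 carries 1 CCAAT word and SRSF6 none of the words. A forkhead word (TGTTTAC or TGTTTGC or TATTTAC or TATTTGC, both strands) was in none of the windows of the 9 genes, and in those of 12.7% of all genes. CCAAT was in windows of 2 of the 9 (37.0% of all genes). TATAAA was in windows of 3, SRSF3, SRSF7 and SRSF11 (13.05% of all genes). The word of SRSF7 starts 27 bases before a RefSeq start. That of SRSF11 is a reverse complement 206 bases before a start inside the annotated gene, and its other window holds none. The ETS word CCGGAAG was in 1 (SRSF5, 10.2% of all genes). An E2F word (TTTCCCGC or TTTGGCGC or TTTCGCGC or TTTGCCGC) was in 1 (SRSF10, 3.399% of all genes). The CRE word TGACGTCA (2.03% of all genes), the E-box CACGTG (7.73%) and the YY1 word AAGATGG (4.49%) were in none. No word overlapped another in the printed windows. A match is a description of these letters only, and FOXA1 often binds enhancers far from a promoter, which the windows do not cover.

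Several SR genes share sequence or exons with other loci, which bears on how well their counts can be assigned. The deposited counts divided a fragment with several possible origins among them. SRSF10 is the most uncertain: 99.1% of its exon length has a copy of at least 100 bases at 95% identity or more elsewhere, chiefly a stretch identical to it on the GRCh37 contig GL000191.1, assigned to chromosome 1 without a position, which has no row in the tables. Whether the aligner's index held that contig is not given in the sources used here, so the level of SRSF10 is uncertain. For SRSF9 53.9% of the exon length has such a copy, for SRSF6 40.7%, at AC005822.1 on chromosome 17, and for SRSF3 26.4%. Where an exon of a counted gene holds these copies, they took few counts. AC005822.1 stood at 1.46 and 1.08 CPM in the PC3 groups and 2.59 and 2.43 CPM in the VCaP groups, NSI first. Of the 3 loci with a copy of SRSF3, 1 (chr2:108536907-108537209) overlaps no exon of a counted gene, so its counts are not known. For SRSF8 11.2% and for SRSF5 6.67% of the exon length has such a copy, at 12 and 27 loci that overlap no exon of a counted gene. SRSF1, SRSF2, SRSF7 and SRSF11 have no such copy. On the other strand, 41.2% of SRSF9 exon bases are shared with GATC, 34.7% of SRSF2 with MFSD11 and 12.59% of SRSF1 with RP11-159D12.6. On the same strand, 10.3% of SRSF1 exon bases are shared with RP11-159D12.5. GATC was lower in both lines, with log2 fold changes of −0.50 (adjusted p 0.0028) in PC3 and −0.82 (adjusted p 5.08e-06) in VCaP, and MFSD11 passed in VCaP at −0.47 (adjusted p 0.0014). RP11-159D12.5 was also lower in both lines, with log2 fold changes of −0.27 (adjusted p 0.0477) in PC3 and −0.31 (adjusted p 0.0175) in VCaP. The PC3 counts ignored strand, so in PC3 reads of SRSF9 and GATC, of SRSF2 and MFSD11, or of SRSF1 and RP11-159D12.6, cannot be told apart where their exons overlap. Reads of SRSF1 and RP11-159D12.5 cannot be told apart in their shared bases in either line.

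The members varied together across libraries, apart from SRSF5 and SRSF11. With log2 levels centred on the mean of each line, Pearson's r over the 12 libraries ran from −0.80 (SRSF1 with SRSF5) to 0.99 (SRSF3 with SRSF7) over the 45 pairs, with a median of 0.68. The median r with the other members was 0.80 for SRSF3 and for SRSF7, and −0.50 for SRSF5 and −0.32 for SRSF11. The libraries share the siRNA contrast, so these values describe the groups as much as the genes. Among 9871 genes outside the family that averaged 5 CPM or more in both lines, the 5 whose pattern was most like the mean of the 10 were FBXO46 (r 0.99), TRA2B (0.98), NUP35 (0.98), RBM3 (0.97) and ORC5 (0.97). TRA2B, itself an SR-like regulator of exon inclusion, had log2 fold changes of −0.41 in PC3 and −0.29 in VCaP.

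Genes that work with the SR proteins were read from lists of their own. Of 2 further SR genes, SRSF4 and SRSF12, neither passed in PC3, and in VCaP SRSF12 was lower at −0.82 (adjusted p 0.0186) from 2.65 ± 0.428 to 1.499 ± 0.529 CPM. Among 23 SR-related genes, 6 passed as lower and 1 as higher in PC3, led by RNPS1 (−0.51) and U2AF2 (−0.61), the large subunit of the factor that SR proteins recruit to the 3′ splice site, with LUC7L3 higher (0.48). In VCaP 5 passed as lower, led by SCAF11 (−0.39) and TRA2B, and 4 as higher, led by PNISR (0.74) and ARGLU1 (0.43). In either direction that is 7 of 23 in PC3, near the 27.7% of all genes called, and 9 of 23 in VCaP, below the 45.8% of all genes called. Of the 9 kinases that phosphorylate SR or other splicing proteins, SRPK1 was lower in both lines (−0.45, adjusted p 0.0078 in PC3 and −0.33, adjusted p 0.0017 in VCaP). In all, 2 kinases passed as lower and none as higher in PC3, the other one being DYRK1A (−0.34), and 1 passed as lower and 4 as higher in VCaP, led by CLK4 (0.64) and CLK1 (0.49), so that the 2 of 9 called in PC3 and 5 of 9 in VCaP are shares not far from those of all genes. Of 6 genes of SR import and mRNA export, 4 passed as lower in PC3, led by the export adaptor ALYREF (−0.55) and THOC1 (−0.36). In VCaP 2 passed as lower, ALYREF (−1.01, adjusted p 4.20e-06) and TNPO3, the SR protein importin (−0.50), and THOC2 as higher (0.44). Over all genes tested, 13.9% were called lower in PC3, and no test compares these 6 genes with them. In either direction the VCaP count is near the 45.8% of all genes called.

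**Figure D4:**
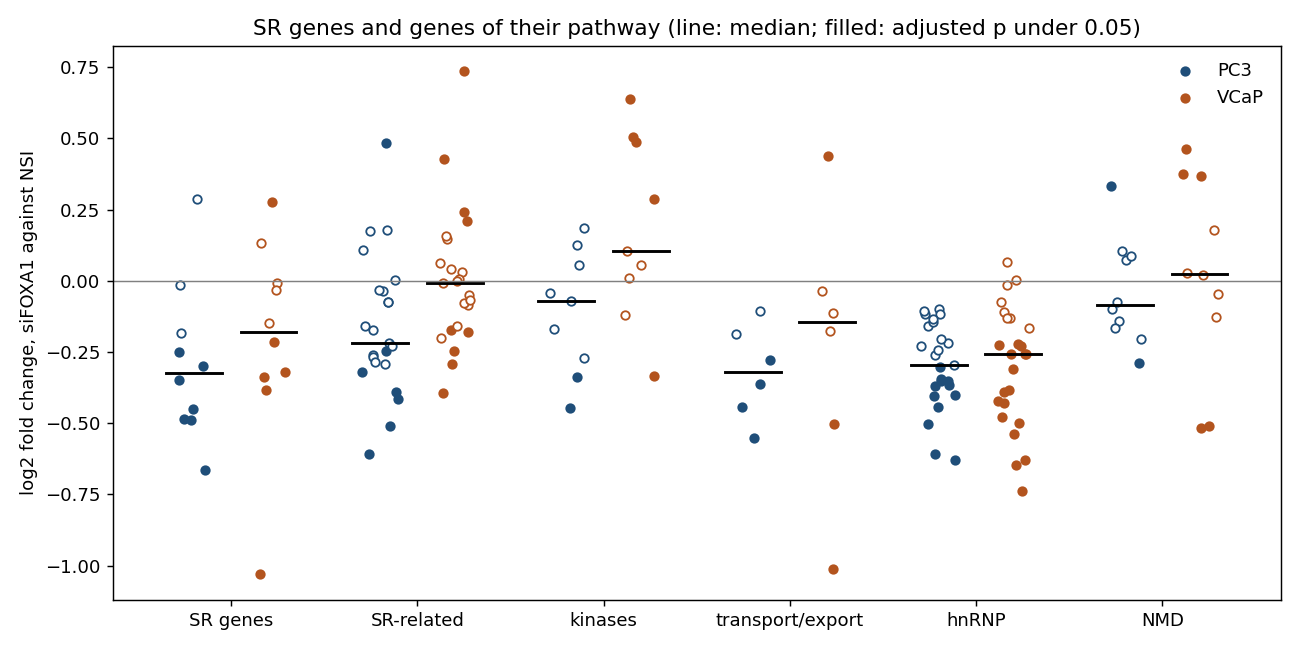
Log2 fold change, siFOXA1 against NSI, of the SR genes and of genes in 5 lists around them, in PC3 (blue) and VCaP (orange). Each point is 1 gene, filled where the adjusted p was under 0.05, and the black line is the median of the list. The median of the hnRNP genes lies at −0.30 in PC3 and −0.26 in VCaP.

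The hnRNP genes, RNA-binding proteins that often oppose SR proteins at exons, were mostly lower in VCaP and in part in PC3: 12 of 25 passed as lower in PC3 and 17 of 25 in VCaP, none as higher, with medians of −0.30 and −0.26. Of all genes of at least 30 CPM, 23.3% were called lower in PC3 and 38.5% in VCaP, and no test compares the list with them. RBMX (−0.63) and HNRNPM (−0.61) led in PC3, and HNRNPF (−0.65) and HNRNPA1 (−0.74) in VCaP. Of 10 nonsense-mediated decay genes, SMG9 passed as lower (−0.29) and SMG6 as higher (0.33) in PC3, and 2 were lower and 3 higher in VCaP, among them SMG9 (−0.52), UPF2 (0.46) and SMG1 (0.37). In either direction 2 of the 10 were called in PC3 and 5 in VCaP, shares near those of all genes. Of 24 cell-cycle genes, 15 passed as lower in PC3 and 24 in VCaP, and none as higher in either, with summed levels of 1016 to 1122 against 664 to 698 CPM in PC3 and 3247 to 3369 against 1734 to 2114 CPM in VCaP. Of 24 interferon-response genes, 24 passed as higher in PC3, with summed levels of 742 to 1086 CPM in NSI and 7771 to 8156 CPM in siFOXA1. In VCaP 19 of them were tested, 10 passed as higher and 5 as lower, and their summed level was 239 to 249 CPM against 209 to 228 CPM. Of 10 commonly used reference genes, 2 passed as lower and 1 as higher in PC3, and 4 as lower and none as higher in VCaP. Their median log2 fold change was −0.10 in PC3 and −0.18 in VCaP, where that of the SR genes was −0.32 and −0.18. Their summed level was 10758 to 12566 CPM in NSI and 10609 to 11410 CPM in siFOXA1 of PC3. In VCaP it was 7450 to 8576 CPM in NSI and 6001 to 6781 CPM in siFOXA1, without overlap. No test compares the SR genes with the reference genes. Over all genes tested, 13.9% were called lower and 13.9% higher in PC3, and 23.3% lower and 22.5% higher in VCaP. In either direction the reference genes were called at shares near those of all genes, 27.7% in PC3 and 45.8% in VCaP. No test compares the cell-cycle or interferon list with all genes. The part of the cell-cycle and interferon changes in the levels of the SR genes was not tested.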

How the data were processed

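Each library had a deposited table of estimated counts for 60106 genes. The authors obtained these expected counts with featureCounts v2.0.0 over GENCODE v28lift37 basic exons (GRCh37), per the file headers, and counted only fragments with both ends mapped, divided fragments that mapped or fell in several places, ignored strand for PC3 and counted the reverse strand for VCaP. STAR 2.7.3a is listed in the submitters' processing notes. Not whole were 54.8% to 75.2% of the nonzero values, depending on the library.

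Counts were rounded, with ties rounded up. Each line was fitted alone with edgeR 4.0.16 in R 4.3.3 (TMM scaling, filterByExpr defaults, two-sided quasi-likelihood test), and the lines were compared by the interaction term over all 12 libraries. Benjamini-Hochberg adjustment ran over every gene tested in a fit, and genes with an adjusted p under 0.05 were called. The SE is the log2 fold change divided by the square root of F, and 95% intervals use the t distribution with the degrees of freedom of the fit, unadjusted. Fold changes include a small prior count. Tested on simulated data, the fit missed most changes of the smallest size tried, and in PC3 also many of the next size. False calls were above their nominal share, by little in PC3 and by more in VCaP.

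Copies of exons were sought by megablast in GRCh37 (at least 100 bases at 95% identity). Groups and replicate numbers come from the titles. Libraries of a group differed by more than sampling noise: chi-square values between them were at least 9.77 per degree of freedom. The alternatives tried were DESeq2 1.42.0 and its size factors, upper-quartile factors, library size alone, no filter on low counts and a replicate block. Also tried were 1 fit of all 12 libraries, mitochondrial genes left out, each library left out, and ties rounded to even. Rounding to even was run first, and rounding up was made the main setting after both outcomes had been seen. All 10 SR genes are described. From each list the text names, per line and direction, at most the 2 called genes with the smallest adjusted p, and it names genes whose exons overlap those of an SR gene, rows that hold a copy of one, and the 5 genes of most similar pattern. A gene that this rule names is not reported here. The members, lists and tests were chosen with earlier results of these data known.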

Additional observations from a re-analysis of the deposited data

Results flagged for a closer look

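SRSF8 responded differently in the lines, by the interaction term: its log2 fold change in VCaP less that in PC3 was −0.60 (SE 0.11, edgeR quasi-likelihood adjusted p 0.000845). It fell in both lines and further in VCaP. Over 20 alternatives the difference stayed between −0.68 and −0.56, with adjusted p values from 6.63e-09 to 0.0045. Cell line, dose, medium, kit and strand setting cannot be told apart in it.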

How the results depend on the processing

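Of the calls in 15 alternatives per line and 20 for the difference between lines, those of SRSF3, SRSF7 and SRSF8 were kept in both lines. Leaving out 1 library gave 3 to 7 SR genes called in PC3 (3963 to 7628 of all genes) and 1 to 2 genes with a different response. The median log2 fold change of the SR genes moved to −0.23 in PC3 with library size alone, and in VCaP to −0.13 with upper-quartile factors, −0.15 in 1 fit of all 12 libraries and −0.21 to −0.17 with 1 library left out. Changes near 0 reversed in sign, none of them called: SRSF11 in PC3 (0.047 with upper-quartile factors, 0.077 with library size alone, 0.019 with ties rounded to even, 0.018 without mitochondrial genes, 0.028 in the fit of 12, −0.030 to 0.071 with 1 library left out), SRSF6 in VCaP (0.040 with upper-quartile factors, 0.018 in the fit of 12, −0.044 to 0.023), SRSF10 in VCaP (0.014 with upper-quartile factors, −0.090 to 0.023), and the difference between lines for SRSF1 (−0.12 to 0.016) and SRSF5 (−0.10 to 0.011). SRSF9 in VCaP lost its call in the fit of 12 (−0.19, adjusted p 0.144). The causes were not tested.

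The titles number the replicates without saying what a number shares, and the names of the tables also repeat numbers across the groups of a line. Deviations from the group means of same-numbered libraries correlated over all genes tested at 0.15, 0.31 and 0.09 in PC3. For VCaP these values were 0.06, 0.04 and 0.28. Each PC3 NSI library went best with its own number, though NSI replicate 1 went nearly as well with siFOXA1 replicate 3 (0.14). The remaining PC3 pairs lay between −0.25 and 0.05. VCaP NSI replicate 1 went better with siFOXA1 replicate 2 (0.15), and NSI replicate 2 with siFOXA1 replicate 1 (0.12). The numbers were not taken to pair the samples, so the main fits leave out anything that same-numbered libraries share. Over genes of at least 5 CPM, a measure added after the blocked calls were seen, same-numbered values were 0.67, 0.73 and 0.31 in PC3. There NSI replicate 3 went better with siFOXA1 replicate 1 (0.34), and NSI replicate 1 with siFOXA1 replicate 3 gave 0.55. All remaining PC3 pairs were negative, between −0.77 and −0.41. Same-numbered values were 0.16, −0.06 and 0.38 in VCaP, and the others lay between −0.33 and 0.28. Whether the PC3 libraries pair by number is not settled by these values. With the replicate block, 11333 genes were called in PC3, 11474 in VCaP and 8832 in the difference between lines. Of the SR genes, 7 were then lower and SRSF5 higher in PC3 (0.28, adjusted p 0.0059), the calls in VCaP stayed at 5 lower and 1 higher, and 3 differed between lines, with SRSF2 (0.33, adjusted p 0.0136) and SRSF3 (0.27, adjusted p 0.0433) added to SRSF8.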
